A study of Canis lupus familiaris with 2 samples.

Results

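Neuronal microtubule-associated proteins and FEZ1 are described here as a group of 10 genes, namely MAP1A, MAP1B, MAP2, MAP4, MAPT, DCX, DCLK1, DCLK2, STMN1 and FEZ1. They were taken by gene symbol from the 15115 genes that the array annotation names through probe sets with exactly 1 symbol, and they hold 29 of these probe sets. FEZ1 was chosen by its large fold between these same signals of J3T-1 and J3T-2, and the other members were picked with those signals known, so the differences below are descriptions. J3T-1 and J3T-2 are glioma subclones of the dog, derived from the same parental tumour cells and differing in invasion and angiogenesis, which is the contrast the comparison addresses. Both were grown as cultures in DMEM with 10% fetal bovine serum and antibiotics and carry no stated treatment or engineered allele. RNA of each subclone was hybridized to 1 Affymetrix canine 3' expression array, so every value is a single measurement. No test, p-value or replicate SD could be given, and a difference between the arrays could lie within the spread between cultures of either subclone. Each subclone is also a single derived line, and bulk RNA cannot tell fewer cells that carry a transcript from less transcript per cell.

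Microtubules are hollow polymers of tubulin that grow and shrink at their ends, and microtubule-associated proteins (MAPs) bind their walls and slow that turnover. In neurons MAP2 sits mainly in dendrites and tau (MAPT) mainly in axons, MAP1A and MAP1B link microtubules to other parts of the cytoskeleton, and doublecortin (DCX) and its kinase relatives DCLK1 and DCLK2 bind microtubules of migrating neuroblasts and growing axons. MAP4 is the broadly expressed relative of MAP2 and tau. STMN1 (stathmin) acts the other way, by binding free tubulin and promoting disassembly, and FEZ1 is an adaptor that couples cargo to the motor kinesin-1 and takes part in axon outgrowth.

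The deposited signal is a linear brightness per probe set from MAS5, an Affymetrix summary that subtracts the brightness of mismatched probes. The median signal over non-control probe sets was 19 for the J3T-1 array and 22 for the other, and lower signals were raised to it as a floor. The probe set whose floored log2 signals had the highest mean stood for its gene, which was called measured if either array exceeded the floor there. This held for 9468 genes. A fold taken against the floor can only be a minimum and is marked "at least", and no fold is given where neither array exceeded it. Signals of different probe sets are not comparable as amounts of transcript, so levels are compared only between the arrays. Where a pair of signals is given, J3T-1 comes first.

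FEZ1, MAP2 and DCLK2 passed 2-fold towards J3T-2, 6 members lay within 2-fold, and 0 passed 2-fold towards J3T-1. DCLK1 counts among the 6 by a ratio against the J3T-2 floor, which is only a minimum. DCX was at the floor on both arrays. Among all measured genes 7.37% passed 2-fold towards J3T-2 and 3.5% towards J3T-1. Since the members were picked with these values in view, the count of 3 is not read against that share. Over all measured genes the log2 ratio, J3T-2 over J3T-1, had a median of 0.17, a shift towards J3T-2 that the single-gene ratios below include. Of the 29 probe sets, 14 exceeded the floor of both arrays, 4 only that of J3T-2, 1 only that of J3T-1 and 10 neither.

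**Figure D1:**
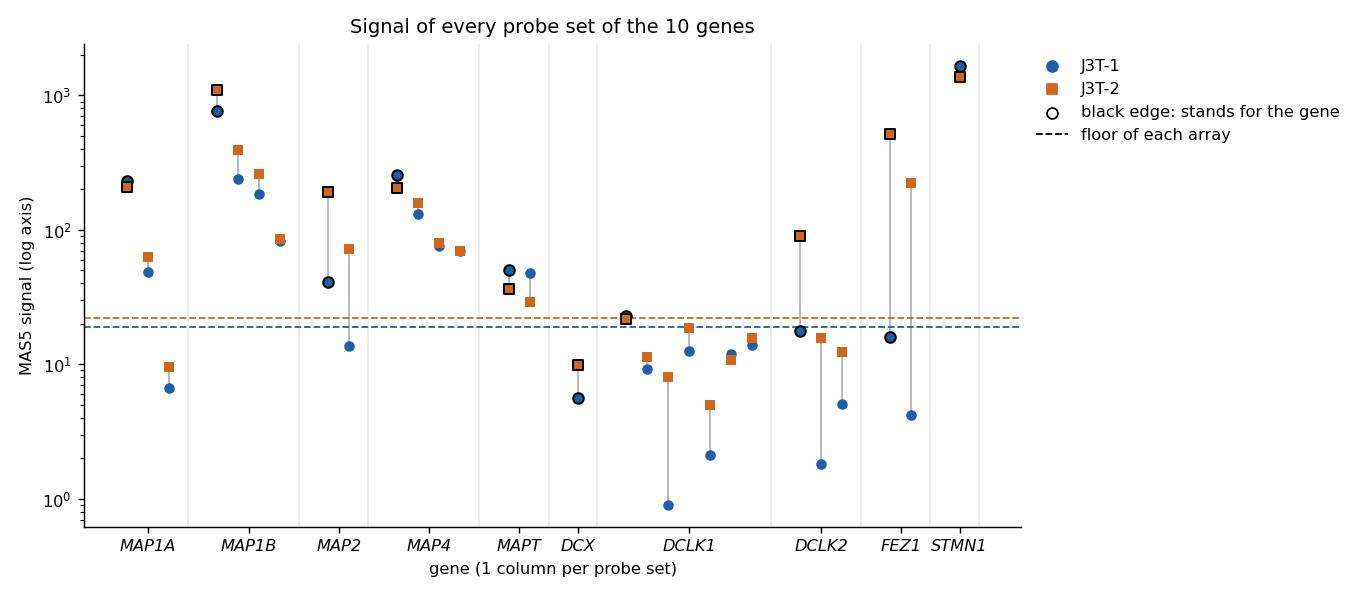
MAS5 signal (log axis) of each of the 29 probe sets of the 10 genes in J3T-1 (blue circles) and J3T-2 (orange squares), 1 column per probe set; dashed lines are the floors, 19 and 22, and a black edge marks the probe set that stands for its gene. Both probe sets of FEZ1 and of MAP2 and 1 of DCLK2 lie far higher in J3T-2, while MAP1B, MAP4, MAP1A, MAPT and STMN1 lie close together on the arrays.

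FEZ1, the kinesin-1 adaptor, had the largest difference of the group. Its brighter probe set, with the suffix _a_at, read 15.9 in J3T-1, under the floor, and 515.8 in J3T-2, 23.4 times the floor of that array. J3T-2 was thus at least 27.1-fold higher. The other FEZ1 probe set, with the suffix _s_at, read 4.2 and 224.7, a difference of at least 11.8-fold. The bounds differ because the J3T-2 signals differ, the J3T-1 side being the same floor in both. As their names show, both probe sets were designed on 1 transcript cluster, and they may share sequence, so they are not independent readings. In J3T-1 FEZ1 could not be told from background, and this does not show that the transcript was absent.

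The genes nearest to FEZ1 in the plane of the floored log2 signals, over 2 arrays, were the retinoic acid receptor gene RARB (14.4 and 478.3), the secreted glycoprotein gene SCUBE3 (3.8 and 476.5) and GATM, which encodes the first enzyme of creatine synthesis (5.2 and 565.9). With only 2 arrays, nearness means no more than a J3T-1 signal under the floor and a like J3T-2 signal.

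MAP2, the dendritic MAP, exceeded both floors by 1 of its 2 probe sets. Its signals there were 40.8 and 192.2, which is 4.71-fold higher in J3T-2 (log2 ratio 2.24). The J3T-1 signal was only 2.15 times the floor, so the size of this fold rests on a dim reading. The other probe set had signals of 13.7 and 72.3, a difference of at least 3.81-fold. Both readings thus went the same way, the second only as a minimum. Both MAP2 probe sets carry the suffix _s_at, which marks sets whose probes match more than 1 transcript, so MAP2 has no reading from a set without that mark. Nearest to MAP2 in the plane of signals were the elastic-fibre gene FBLN5 (40.3 and 199.5), PBDC1 (38.0 and 181.7) and the neuronal adhesion gene NEGR1 (44.7 and 193.5).

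The doublecortin family was mostly dim, and DCLK2 was its exception in J3T-2. DCLK2 encodes a doublecortin-like microtubule-binding kinase. Its brightest probe set had signals of 17.6 and 90.1, so that J3T-2 exceeded J3T-1 at least 4.74-fold. Its other 2 probe sets read 1.8 and 15.6, and 5.1 and 12.3, below the floor on both arrays. The DCLK2 difference thus rests on 1 of 3 probe sets, since readings below the floor on both arrays give no direction.

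DCLK1, the closest relative of DCLK2 in the group, was at background. Its 7 probe sets ranged from 0.9 to 22.8 in J3T-1 and from 5.0 to 21.8 in J3T-2. Only the brightest passed the floor, in J3T-1, with 22.8 against 21.8. That is a lower bound of 1.04-fold, which does not pass the size rule. The single DCX probe set read 5.6 and 9.9. The raw signals of the members below the floor on both arrays leaned to J3T-2 in 9 of 10 probe sets, and 6 of these 10 belong to DCLK1. Over all 11863 such probe sets of named genes the share was 53.8%. Readings this low have no usable order and are given only as a description.

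**Figure D2:**
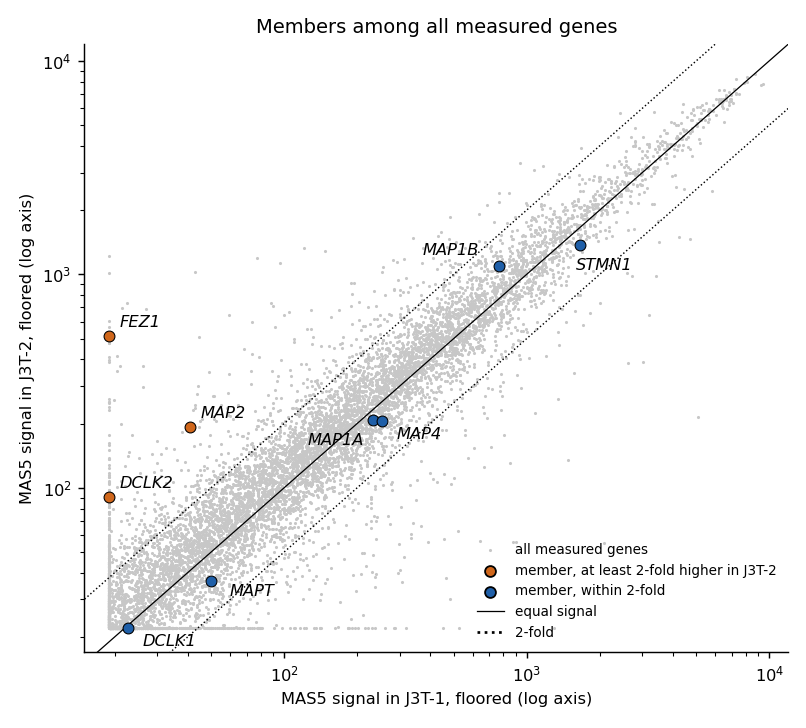
Floored MAS5 signal in J3T-2 against J3T-1 (both log axes) for all 9468 measured genes (grey) and the 9 measured members, orange where past 2-fold towards J3T-2 and blue where within 2-fold; the solid line is equal signal and the dotted lines are 2-fold. FEZ1 and DCLK2 lie on the left edge, the J3T-1 floor, and MAP2 just to its right, above the dotted line.

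MAP1B, a MAP of growing axons, was well above the floor on both arrays and slightly higher in J3T-2. Its brightest probe set had signals of 766.0 and 1090.7 (1.42-fold). The other 3 read 240.5 and 389.4, 183.3 and 260.1, and 83.1 and 84.8. All 4 went towards J3T-2, by 1.02-fold to 1.62-fold, and the SD of their log2 ratios was 0.28. After the shift of all genes was taken off, the brightest gave 1.27-fold and the dimmest lay on the J3T-1 side (log2 ratio -0.14).

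MAP1A, which is made from a related precursor and is known from mature neurons, had no settled direction. The brightest probe set read 232.4 and 208.2, 1.12-fold higher in J3T-1. A second read 48.2 and 62.7, 1.3-fold higher in J3T-2, and the third, 6.7 and 9.5, was below the floor. The log2 ratios of the first and second had an SD of 0.38. Across the 4580 genes with several probe sets above the floor, the root mean square of this SD was 0.26, and it was 0.35 in the dimmest 1527 of them, 0.23 in the middle 1526 and 0.17 in the brightest 1527. This spread lies between probe sets on the same arrays and holds no variation between cultures. Probe sets that read different transcripts of a gene may add to it.

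The probe sets of MAP4, the broadly expressed MAP, also pointed both ways. The brightest read 253.6 and 205.2 (1.24-fold higher in J3T-1). The other 3 read 130.3 and 157.1, 75.6 and 79.6, and 69.0 and 69.9, that is 1.01-fold to 1.21-fold higher in J3T-2. The log2 ratios of the 4 had an SD of 0.24. Of the 4, 3 were above 0 as deposited, but after the shift of all genes was taken off only 1 was, the values running from -0.47 to 0.10.

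MAPT, which encodes tau, was the member with the lowest ratio. Its probe sets read 50.1 and 36.5, and 48.1 and 29.2, so both were higher in J3T-1, by 1.37-fold and 1.65-fold. These signals were within 2.64 times the floor, in the range where probe sets of a gene disagree most. The log2 ratio of -0.46 for the brighter one became -0.62 after the shift of all genes was taken off, and 89.4% of measured genes had a higher ratio. Tau and MAP2, which share a microtubule-binding repeat region, thus had opposite directions on these arrays, with 2 of 2 probe sets each. The J3T-1 signals of both genes were dim.

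STMN1, the tubulin-sequestering protein that proliferating cells express strongly, had a J3T-1 signal of 1655.2 against 1372.8 by its only probe set. This was 1.21-fold higher in J3T-1 (log2 ratio -0.27, or -0.44 after the shift was taken off). With 1 probe set there is no check of this value within the array.

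The members are scattered over the genome, and the ratios of the nearest measured genes were set beside theirs, in the gene order of the RefSeq assembly UU_Cfam_GSD_1.0. Of the 10 measured neighbours of FEZ1, 5 on each side, 1 passed 2-fold towards J3T-2 and 1 towards J3T-1, with a median log2 ratio of 0.0022. The genes on either side of FEZ1, EI24 (127.9 and 193.5) and TMEM218 (472.2 and 473.3), lay within 2-fold. For MAP2 the counts were 0 and 1 (median 0.32), with PIKFYVE (27.8 and 42.8) and RPE (291.1 and 262.3) alongside. For DCLK2 they were 1 and 1 (median 0.33), the former being the endothelin receptor gene EDNRA (10.1 and 124.5). The differences of FEZ1 and MAP2 were larger than that of any of their 10 neighbours, while the bound for EDNRA exceeded that for DCLK2. As FEZ1 was chosen by its fold and MAP2 with its signals known, this order is only a description.

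MAPT differed from its surroundings in the other direction. All 10 of its measured neighbours had log2 ratios above 0, from 0.23 to 2.70 with a median of 0.76, and 4 passed 2-fold towards J3T-2, or 3 after centring, which took CDC27 under it. The 4 were the vesicle fusion gene NSF (227.1 and 584.2), the anaphase-promoting complex gene CDC27 (137.8 and 304.6), the integrin gene ITGB3 (68.4 and 445.9) and HEXIM1 (122.8 and 379.7). Over the 602 other measured genes of that chromosome the median was 0.58, against 0.09 to 0.23 for the chromosomes of the other members, and 95.2% had a higher ratio than MAPT. DNA copy number was not measured here, and its part in these values was not tested.

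**Figure D3:**
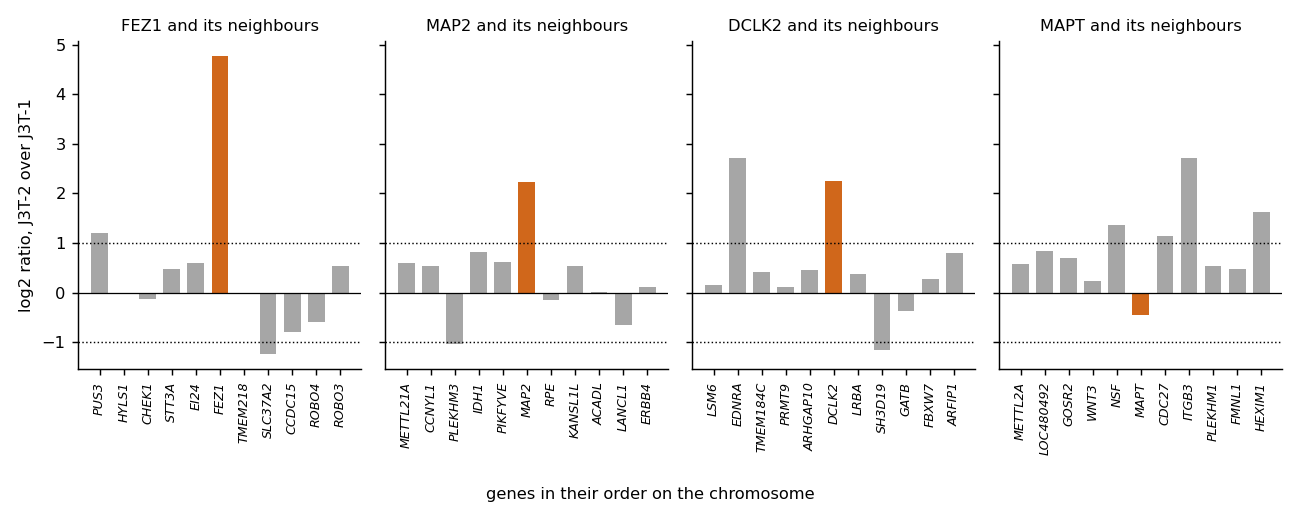
Log2 ratio of signals, J3T-2 over J3T-1, for FEZ1, MAP2, DCLK2 and MAPT (orange bars) and for the 5 nearest measured genes on each side (grey bars), in chromosome order; dotted lines are 2-fold. FEZ1 and MAP2 stand above all 10 neighbours, EDNRA stands above DCLK2, and MAPT lies below 0 with all 10 neighbours above it.

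Genes that act with the members were read from 7 lists of 126 genes. Of the 126, 110 had a probe set with exactly 1 symbol and are counted as on the array. The rest were not read, which does not show that the array lacks them. Measured were 87 genes. Of these, 9 (10.3%) passed 2-fold towards J3T-2 and 3 (3.45%) towards J3T-1, with a median log2 ratio of 0.22 against 0.17 for all genes. With ratios centred on the median of all genes the counts were 5 and 4, TUBB3 being added towards J3T-1, so the share of calls towards J3T-2 went from 75% to 55.6%. Over all genes this share went from 67.8% to 52.0%. The lists as a whole therefore lay near the rest of the array.

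Of the 18 tubulins listed, the subunits that the members bind, 10 could be read, and these were mostly alike. TUBA1A, TUBA1B and TUBB4B were among those not read. Of the 10 measured, 2 passed 2-fold towards J3T-2 and 0 towards J3T-1, with a median of 0.03. The alpha-tubulin gene TUBA4A had signals of 58.5 and 278.6 (4.76-fold) and the delta-tubulin gene TUBD1 36.8 and 82.8 (2.25-fold). Both values came from _s_at probe sets, and the other TUBA4A probe set, with 1.2 and 10.6, was below the floor on both arrays. The neuronal beta-tubulin gene TUBB3 read 146.8 and 82.0 by 1 probe set (1.79-fold higher in J3T-1) and 56.3 and 69.2 by the other (1.23-fold higher in J3T-2). The TUBB3 probe sets thus pointed opposite ways, and tubulin genes are similar enough in sequence for probes to match several of them. The abundant TUBA1C (6195.5 and 6636.9), TUBB (4372.7 and 4284.8) and TUBB2A (4721.4 and 3883.5), named after their values were seen, were within 1.22-fold.

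The remaining stathmins and doublecortin-domain genes were nearly all at background. Of 8 on the array, only STMN3 was measured, with 39.5 and 55.9 (1.42-fold higher in J3T-2). Among other structural MAPs, 1 of 13 passed 2-fold towards J3T-2 and 0 towards J3T-1 (median 0.10). It was EML4, a microtubule-stabilizing protein, with 64.6 and 245.6 (3.8-fold) by its only probe set, which carries the suffix _s_at. MTUS1 (117.0 and 68.9) was 1.7-fold higher in J3T-1 and EML1 (132.5 and 203.8) 1.54-fold higher in J3T-2.

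Plus-end tracking proteins bind growing microtubule ends. Of 13, 1 passed 2-fold towards J3T-2 and 0 towards J3T-1, with a median of 0.26 that lay 0.09 above that of all genes. NAV1, a neuron navigator, had signals of 82.6 and 200.7 (2.43-fold) by its only probe set, which carries the suffix _s_at. The cytoskeletal linker DST read 461.8 and 894.2 (1.94-fold, with all 9 other probe sets above the floor in the same direction), and CLIP1 263.9 and 478.4 (1.81-fold, with all 4 others the same way).

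Kinases and phosphatase subunits that act on MAPs had 1 of 12 past 2-fold towards J3T-2 and 0 towards J3T-1 (median 0.32). PPP2R2B, a regulatory subunit of protein phosphatase PP2A, read 18.2 and 72.3, so that J3T-2 exceeded J3T-1 at least 3.81-fold. A second probe set gave at least 2.11-fold, and both carry the suffix _s_at. The kinase genes FYN (240.3 and 434.6) and DYRK1A (245.2 and 440.3) were 1.81-fold and 1.8-fold higher in J3T-2, although the other DYRK1A probe set read 31.6 and 31.4.

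Severing and tubulin-modifying enzymes went both ways. Of 20 measured, 3 passed 2-fold towards J3T-2 and 2 towards J3T-1 (median 0.28). VASH2, a tubulin detyrosinase of the vasohibin family, had signals of 1205.4 and 415.2 (2.9-fold higher in J3T-1), and its other 2 probe sets gave 2.22-fold and 2.47-fold. TTLL7, which adds glutamate chains to tubulin, read 76.8 and 23.4 (3.28-fold higher in J3T-1), and a second probe set gave at least 3.66-fold. The deacetylase HDAC6 (21.8 and 46.9, or 2.15-fold, but 25.5 and 29.1 by a second probe set and 21.6 and 13.7 by the dimmest), the tubulin cofactor TBCD (127.3 and 272.6, or 2.14-fold) and the severing enzyme FIGN (28.2 and 59.3, or 2.1-fold) were higher in J3T-2. These 3 fell under 2-fold after centring, and TBCD and FIGN were named after their values were seen.

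The relatives and transport partners of FEZ1 had smaller differences, which is only a description, since FEZ1 was chosen by its large fold. Of 18 measured, 1 passed 2-fold towards J3T-2 and 1 towards J3T-1 (median 0.14). FEZ2, the broadly expressed paralog, had signals of 452.5 and 874.9, 1.93-fold higher in J3T-2, and a second probe set read 155.0 and 316.8 (2.04-fold). The kinesin light chain gene KLC4 read 32.4 and 67.2 (2.07-fold, but under 2-fold after centring), and the kinase gene PRKCZ 45.1 and 17.9 (J3T-1 higher, at least 2.05-fold). Named after their values were seen, the kinesin-1 heavy chains that FEZ1 binds were close on the arrays: KIF5A read 68.1 and 64.2, KIF5B 1104.3 and 1549.1, and KIF5C 618.6 and 458.0. The FEZ1-binding protein SCOC had signals of 764.5 and 590.7, and DISC1, another partner, was below the floor with 6.3 and 4.5.

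**Figure D4:**
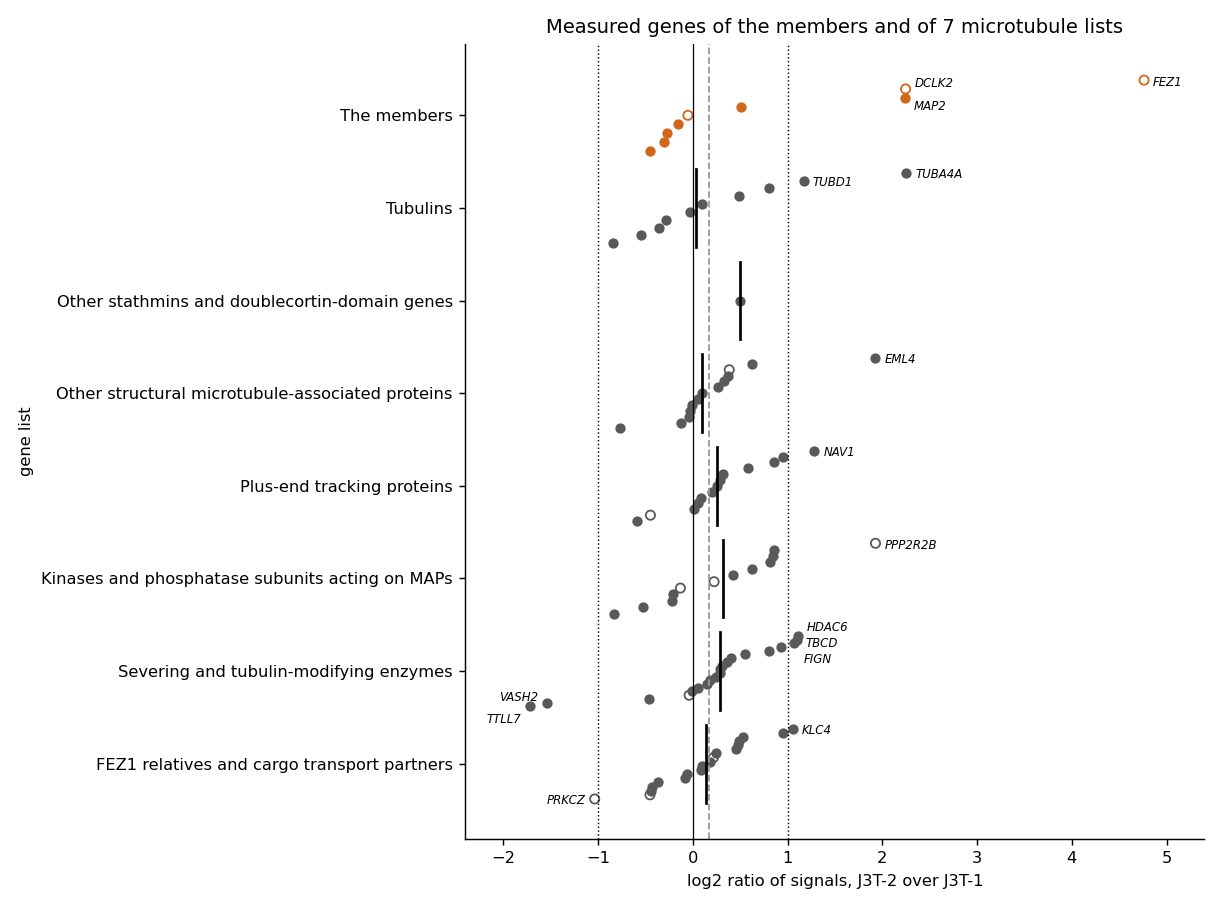
Log2 ratio of signals, J3T-2 over J3T-1, of the 9 measured members (orange) and of the measured genes in each of 7 lists (grey), with open symbols where 1 array was at the floor, black bars at list medians, dotted lines at 2-fold and a dashed line at the median of all genes, 0.17. FEZ1 lies at 4.76, beyond every gene of the lists, and the list medians lie between 0.03 and 0.50.

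Markers of cell types were read beside these values. All 7 glioma and neural progenitor markers were measured, and 4 of them passed 2-fold towards J3T-2, where 7.37% of all measured genes did. The list median of 1.05 is the minimum for EGFR, and it was 0.88 after centring. The 4 were the stem cell factor SOX2 (411.1 and 1191.0, or 2.9-fold), the receptor genes PDGFRA (43.7 and 98.9, or 2.26-fold) and EGFR (1.9 and 39.4, at least 2.07-fold) and the lipid-binding protein gene FABP7 (12.3 and 85.7, at least 4.51-fold). EGFR fell under 2-fold after centring. The other 3 markers of this list lay within 2-fold. The intermediate filament gene VIM (8129.9 and 7960.8) and CD44 (1206.7 and 1035.4) were slightly higher in J3T-1, and NES (55.3 and 69.3) was slightly higher in J3T-2. Of 7 astrocyte markers 5 were below the floor on both arrays, GFAP among them (2.3 and 4.7), while the glutamate transporter gene SLC1A3 (771.3 and 2396.3) was 3.11-fold higher in J3T-2. The astrocyte markers summed to 812.8 and 2434.1, nearly all of it SLC1A3. Of 5 oligodendrocyte lineage markers on the array 3 were below the floor on both, and CNP (48.0 and 124.1) was 2.59-fold higher in J3T-2. Their sums were 111.8 and 167.5. Of 11 neuron markers on the array 5 were measured, and RBFOX3, SNAP25, NEFM, ELAVL3, STMN2 and INA were below the floor on both arrays. Of the measured ones, the neurofilament gene NEFL (120.3 and 1335.6) was 11.1-fold higher in J3T-2, GAP43 read 259.2 and 246.9, SYT1 and ELAVL4 were close to the floor, and the TUBB3 probe sets disagreed as given above. The neuron markers summed to signals of 585.3 and 1732.2, a gap no larger than that of NEFL alone. Without NEFL they summed to 465 and 396.6, higher in J3T-1. Sums of markers add signals of different probe sets and are not amounts of transcript. The part of these markers in the FEZ1, MAP2 and DCLK2 values was not tested. Of 7 microglia and leukocyte and 6 endothelial markers, 5 and 4 were below the floor on both arrays, and their summed signals were 60.1 and 83.1, and 80.3 and 72.3.

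The ratios of the 9 measured members were recomputed with 3 scalings, 3 treatments of low signals and 2 choices of probe set. FEZ1 stayed past 2-fold towards J3T-2 in all of them, with log2 ratios from 2.27 to 5.02. The range is not one of estimates, since the ratio is a minimum wherever the J3T-1 signal was under the floor. The 2.27 is such a minimum, set by a J3T-1 floor of 106.7 at the 75th percentile. That floor also took the minimum for MAP2 under 2-fold (at least 0.85) and left DCLK2, MAPT and DCLK1 unmeasured. MAP2 and STMN1 have no probe set without an _x_at or _s_at suffix. The members within 2-fold stayed within it in each setting that measured them. MAP1A and MAP4 turned to 0.11 and 0.05 when the median over probe sets was used.

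**Figure D5:**
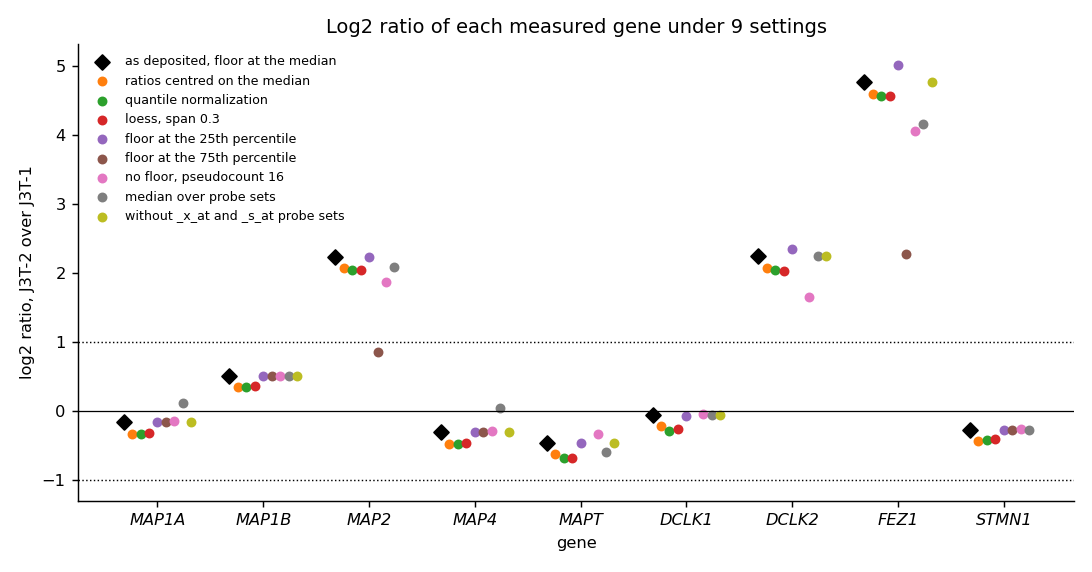
Log2 ratio, J3T-2 over J3T-1, of each measured member with the deposited scale and median floor (black diamonds) and under 8 other settings (coloured circles); dotted lines are 2-fold. FEZ1 stays above the upper dotted line throughout, MAP2 drops to a minimum of 0.85 where the floor was set highest, and MAP1A and MAP4 lie on both sides of 0.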

How the data were processed

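The authors deposited 1 MAS5 signal intensity per probe set and array, on a linear scale. MAS5 is named in the submitters' processing notes. The sources used here do not state its version, scaling target or detection calls. Per the labels' protocols, RNA came from an RNeasy kit, and 250 ng of it went into biotinylated cRNA by a 3' IVT kit. Of the 43035 probe sets, 111 were controls. Of the rest, 29254 had 1 gene symbol in the array annotation, 439 several and 13231 none.

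Each array was floored at the median of its non-control signals. Signals were not rescaled, and log2 ratios are J3T-2 over J3T-1. A fold of 2 counted as a difference. With 1 array per subclone, no test was run, and the number of arrays limits the precision. All members and up to 3 genes per list by size of ratio, with TUBB3, were named, as were the 3 genes nearest to FEZ1 and MAP2, leaving out uncharacterized LOC symbols. The members, the lists and the neighbour comparison were chosen with earlier results of these data known. All 10 members matched the RefSeq table by symbol and gene ID. Ratios were computed in Python 3.11.15 with pandas 2.3.3 and numpy 2.4.6, loess with statsmodels 0.14.6 and figures with matplotlib 3.10.9.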

Additional observations from a re-analysis of the deposited data

How the results depend on the processing

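With the floor at the 75th percentile of each array, 1 member, FEZ1, passed 2-fold towards J3T-2 in place of 3, since that floor lies above both DCLK2 signals and above the J3T-1 signal of MAP2. Without _x_at and _s_at probe sets it was 2, because MAP2 has no other probe set. Under the other 6 settings it was 3, and in all 8 settings 0 members passed it towards J3T-1. The share of all measured genes past 2-fold towards J3T-2 also varied. It was lowest under the pseudocount (3.61%) and highest under the 25th-percentile floor (11.5%). The 75th-percentile floor gave 5.08%, and dropping suffixed probe sets gave 7.71%. As the members were picked with their signals known, their steady count is only a description. The count of genes in the microtubule lists at least 2-fold apart was 12. A floor at the 25th percentile gave 23, and one at the 75th gave 4. The count was 7 with no floor and a pseudocount of 16, and 6 without _x_at and _s_at probe sets. Under the other 4 settings it was 9 or 10. Over all 9468 measured genes, 698 passed 2-fold towards J3T-2 and 331 towards J3T-1. These became 1549 and 892 of 13423 under the lower floor, and 266 and 121 of 5241 under the higher one. The whole array thus moved the same way under both floors, so this swing is not read as particular to the lists. Of 67 recomputed ratios of members, 59 moved by less than 0.26, the spread between probe sets. The other 8 belonged to FEZ1, MAP2, DCLK2, MAP1A and MAP4. Many of the 59 could not have moved further. Centring shifts every ratio by the same 0.17, and a changed floor leaves a ratio of signals above it as it was. Dropping suffixed probe sets changes nothing for a gene whose probe set has no such suffix. The tally therefore does not measure how firm the ratios are. No member at least 2-fold apart changed direction. No paired analysis was possible because each subclone has 1 array and the labels carry no replicate numbers. Signals within about 2 times the floor, as for DCLK1 and MAPT in J3T-2 and MAP2 in J3T-1, limit what can be read.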
